A study of Rattus norvegicus with 35 samples.

Results

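Cytochrome P450 enzymes are haem proteins that use electrons from partner proteins to add oxygen to steroids, fatty acids, retinoids, vitamin D and foreign compounds. Families 1 to 4 mostly handle foreign compounds and fatty acids, and the higher-numbered families mostly make or clear hormones, bile acids and vitamins. Indole-3-carbinol (I3C), a compound of cruciferous vegetables, gives rise in the stomach to ligands of the aryl hydrocarbon receptor (Ahr), a transcription factor whose classical targets are Cyp1a1, Cyp1a2 and Cyp1b1. The members described here are all array probes whose gene name is Cyp followed by a digit, apart from the sterol synthesis gene Cyp51. There were 78 such probes for 65 gene names, of 41012 probes in all.

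RNA came from the left abdominal mammary gland of female Sprague-Dawley rats at postnatal day 21. Their dams were gavaged with bisphenol A (BPA, a plastics monomer) at 250 or 25 µg/kg/day between gestational days 10 and 21. The controls are labelled negative control, with no vehicle named. The 7 groups were BPA250+I3C, BPA250+genistein, BPA250, BPA25+I3C, BPA25+genistein, BPA25 and control, with 5 animals and 5 arrays each. I3C was given to dams in the chow at 2000 mg/kg (about 45.0 mg/kg/day), and genistein, a soy isoflavone, at 250 mg/kg chow (about 5.5 mg/kg/day). Neither diet was tested without BPA, and its comparisons are made within a BPA dose. The study's design text says that the offspring came from different litters, but the labels tie no animal to a litter, so p-values measure the spread between these animals. In whole tissue, fewer cells of a type and less RNA per cell cannot be told apart.

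Few P450 genes gave a measurable signal in this gland. Of the 78 probes, 17 (21.8%) for 15 gene names met the condition for being tested, a signal well above background on 4 or 5 arrays in 1 or more groups. Of all probes, 46.3% met it (18996 probes). The other 61 probes, which hold every probe of 50 gene names, were above background on 0 to 13 of 35 arrays, with a median of 6. Near the condition, all 17 tested probes reached 5 of 5 arrays in their best group, and 6 untested probes reached 3 of 5 (probes of Cyp27b1, Cyp17a1, Cyp7b1, Cyp2b2, Cyp1a1 and Cyp2d13). No P450 probe was saturated on any array. Arrays carry names of their design, 19 of which differ from the current RefSeq rat symbol (Cyp2d22 is now Cyp2d4, Cyp2d10 is Cyp2d5 and Cyp2j9 is Cyp2j3). RefSeq (GRCr8) matched 63 of the 65 names.

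**Figure D1:**
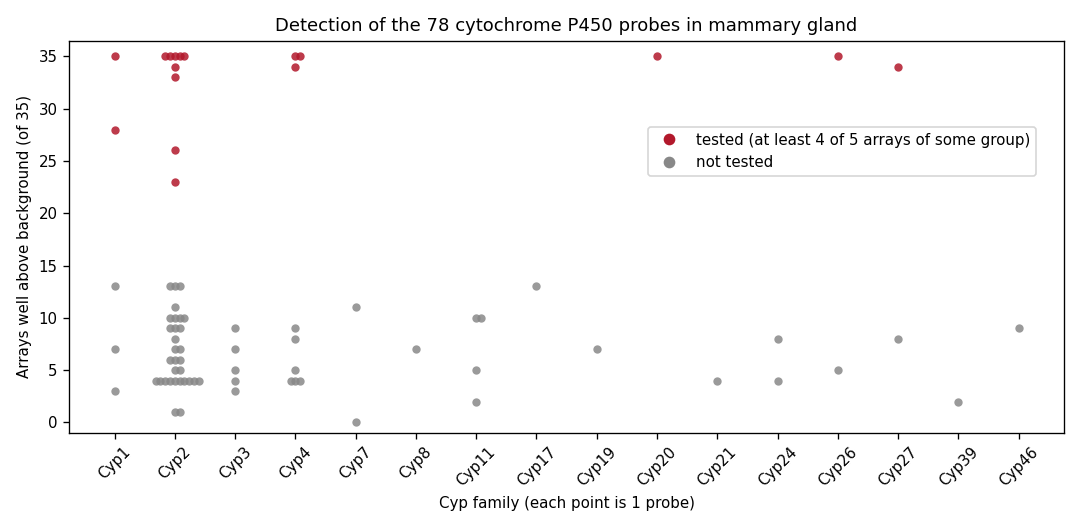
Each point is 1 of the 78 P450 probes, placed by family on the horizontal axis and by the number of the 35 arrays on which it was well above background on the vertical axis. The 17 tested probes (red) stand at 23 to 35 arrays and the 61 others (grey) at 0 to 13.

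One slide touched most results. The arrays lie on 10 slides, and slide 3 held 1 array each of BPA250, BPA25+genistein, BPA25 and control, the animals numbered 2. On these 4 arrays 93.4% to 96.4% of all probes were above background, against 31.9% to 72.2% on the other 31. Outside slide 3, 22 of the 61 untested P450 probes were above background on 0 arrays, and none of the 61 on more than 9. Levels below are log2 signals relative to the 75th percentile of the array. On this scale 10 of the 17 tested P450 probes (58.8%) lay more than 1 away on slide 3, on average, compared with the other arrays of the same groups, as did 60.1% of all tested probes. Of these, Cyp26b1 (-1.95) and 6 others, Cyp4f6 among them, were lower on slide 3, while Cyp4b1 (1.73), a Cyp1b1 probe (1.69) and Cyp2e1 (1.64) were higher. Of the 36 differences named below, 8 moved by over 1.5 times when the 4 arrays were left out, and these are given both ways.

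**Figure D2:**
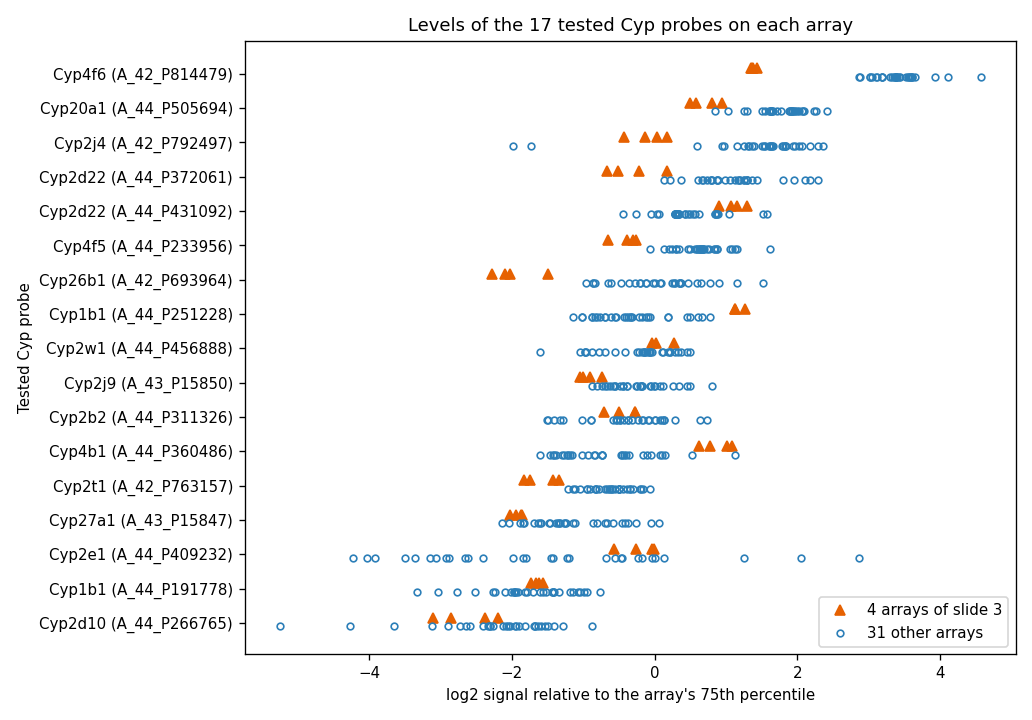
Each row is 1 of the 17 tested probes and each symbol 1 array, on an axis of log2 signal relative to the array's 75th percentile; triangles are the 4 arrays of slide 3 and circles the 31 others. Cyp4f6 and Cyp26b1 on slide 3 lie below every other array, whereas Cyp2e1 spreads from -4.22 to 2.86 over the other arrays. Probes differ in how well they bind, so rows are not to be compared in level.

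The probes of Cyp2e1 and Cyp27a1, which are named in the comparisons below, are shown to make plain what was measured. Both are 60 bases long and are printed as the array files give them. Cyp2e1 lies on rat chromosome 1 and Cyp27a1 on chromosome 9 (RefSeq, GRCr8).
Cyp2e1 (A_44_P409232): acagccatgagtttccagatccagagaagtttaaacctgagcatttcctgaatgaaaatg
Cyp27a1 (A_43_P15847): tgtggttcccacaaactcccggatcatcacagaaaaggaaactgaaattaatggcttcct
The Cyp2e1 probe is spotted 10 times on each array and averaged, and the Cyp27a1 probe once.

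Among the Ahr-regulated P450 genes, 1 of 4 was tested. Cyp1b1, which hydroxylates oestradiol, was detected by 2 probes, on 35 and 28 of 35 arrays. Cyp1a1, the classical reporter of Ahr activity, was above background on 13 arrays, 9 of them outside slide 3. It was above background on 2 of 5 arrays in BPA250+I3C, 1 in BPA250+genistein, 3 in BPA250, 2 in BPA25+I3C, 2 in BPA25+genistein, 1 in BPA25 and 2 in control. No group had it above background on more than 3 arrays. These counts include every slide 3 array, 1 each of BPA250, BPA25+genistein, BPA25 and control. Slide 3 held no array of the I3C groups or BPA250+genistein, so the counts are not directly comparable between groups. The 2 probes of Cyp1a2, which oxidises aromatic amines, were above background on 7 and 3 arrays, and the single probe of Cyp2s1 on 10. The receptor itself, Ahr, was above background on 6 arrays and its partner Arnt on 12, so neither was tested.

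The probe of Cyp1b1 seen on 35 arrays (A_44_P251228) had levels of -0.87, -0.70, 0.61, -0.22 and 0.66 in BPA250+I3C, against -0.06, 1.13, 0.49, -0.76 and -0.55 in BPA250. It had -0.40, 0.77, -0.32, -0.61 and -0.37 in BPA25+I3C, against -0.87, 1.13, -0.80, -0.70 and -0.12 in BPA25. In BPA250+genistein it had -1.02, 0.46, 0.19, -1.02 and 0.19, and in the 4 measured animals of BPA25+genistein -0.34, -0.17, -0.54 and -0.09. The control levels were -0.33, 1.27, -0.84, -0.43 and -1.15. The groups overlap throughout, and the value of 1 or more in BPA250, BPA25 and control is the slide 3 array each time. The difference was -0.16 ± 0.44 for BPA250+I3C minus BPA250 and 0.09 ± 0.44 for BPA25+I3C minus BPA25 (log2, ± SE, limma, adjusted p 0.891 and 0.999). The other probe (A_44_P191778) gave 0.01 ± 0.38 and 0.55 ± 0.38 for the same comparisons (adjusted p 0.992 and 0.999). Without slide 3, A_44_P251228 gave 0.11 ± 0.36 and 0.44 ± 0.36, so its direction at the higher dose rests on 1 BPA250 array.

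The 2 probes of Cyp1b1 did not track each other. Over 34 arrays with both values their Pearson correlation was 0.18, and over the 31 arrays outside slide 3 it was 0.19 (a description across arrays that share slides, with no test). On slide 3, A_44_P251228 was higher by 1.69 and A_44_P191778 by 0.24. Cyp2d22, of the drug-metabolising 2D subfamily, was also tested through 2 probes. These went opposite ways on slide 3 (-1.55 and 0.66), and their correlation was -0.01 over 35 arrays and 0.45 over the 31 others. Differences of either gene are given per probe.

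**Figure D3:**
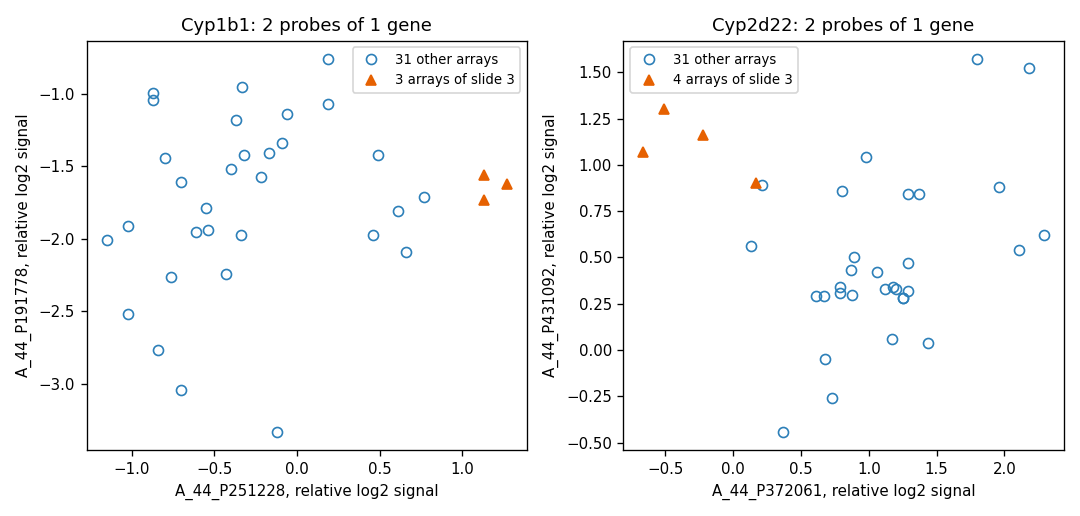
Each point is 1 array, with the level of one probe of a gene on each axis (log2 signal relative to the array's 75th percentile), for Cyp1b1 on the left and Cyp2d22 on the right. Triangles are arrays of slide 3: for Cyp2d22 they lie low on one probe (-0.66 to 0.17) and fairly high on the other (0.90 to 1.30).

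No gene of steroid hormone synthesis was tested. All 7 (Cyp11a1, Cyp11b1, Cyp11b2, Cyp11b3, Cyp17a1, Cyp19a1 and Cyp21a1) stayed under the condition. Cyp19a1, the aromatase that makes oestrogens, was above background on 7 arrays, 3 of them outside slide 3. Cyp11a1, which cuts the cholesterol side chain, reached 2 arrays, both of them on slide 3. Cyp17a1, which makes androgen precursors, reached 13 arrays, 9 outside slide 3. Such signals near background do not show that the transcripts are missing from the gland.

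Of the sterol and bile acid genes, Cyp27a1 alone was tested, 1 of 6. Cyp7b1, an oxysterol hydroxylase, reached 11 arrays, and Cyp7a1, the rate-limiting enzyme of bile acid synthesis in liver, reached 0 of 35. Of 5 retinoid and vitamin D genes on the array, Cyp26b1, which degrades retinoic acid, was tested. Cyp24a1, which inactivates vitamin D, reached 8 and 4 arrays by its 2 probes, Cyp27b1, which activates it, 8, and the vitamin D 25-hydroxylase Cyp2r1 7. Of family 3, the main drug-metabolising P450 genes of liver, 0 of 5 genes were tested. Family 4, which hydroxylates fatty acids and leukotrienes, had 3 of 9 (Cyp4b1, Cyp4f5 and Cyp4f6), and family 2 without Cyp2s1 and Cyp2r1 had 8 of 28. Cyp2u1, a fatty acid hydroxylase, was above background on 5 arrays.

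Tested members were found on nearly all arrays, apart from 3 probes. Cyp4f6, a leukotriene and fatty acid hydroxylase, averaged 3.18 ± 0.73 over the 35 arrays (SD; range 1.35 to 4.57). Cyp20a1, a P450 of unknown substrate, averaged 1.65 ± 0.48 and Cyp2j4, an arachidonic acid epoxygenase, ranged from -1.98 to 2.36. The 2 probes of Cyp2d22 averaged 0.95 and 0.55, Cyp4f5 averaged 0.54 and Cyp26b1 -0.17. Cyp2e1 (23 of 35 arrays), Cyp2d10 (26) and the dim Cyp1b1 probe (28) were above background on the fewest arrays, and their values near background are less precise. Among all tested probes, the standard deviation of Cyp2e1 stood at percentile 99 and that of Cyp2j4 at percentile 92.1, whereas Cyp2t1 (12.5) and Cyp2j9 (15.5) varied little.

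Genes linked to electron transfer to P450 enzymes and to haem were also measured. All 10 listed were tested, including the P450 reductase Por and the rate-limiting haem synthesis enzyme Alas1 on all 35 arrays. Over 12 comparisons, 0 of 276 pairs of a probe and a comparison passed at an adjusted p under 0.05 for the 20 tested genes of 4 non-member lists (electron donors, P450 regulators, other Ahr targets, and Ptgis and Tbxas1). At an unadjusted p under 0.05 (limma) there were 4 of the 276, against 0.963% to 9.22% of all probes by comparison. Alas1 (1.06 ± 0.51, adjusted p = 0.776) and the electron carrier Cyb5a (0.63 ± 0.26, adjusted p = 0.776) were at that level in BPA250+I3C minus BPA250 (all probes 4.17%). The Cyb5r3 probe A_43_P13317 (-1.01 ± 0.49, adjusted p = 0.533) and the glucuronidation gene Ugt1a6 (0.45 ± 0.21, adjusted p = 0.503) were at that level for genistein averaged over both BPA doses (all probes 9.22%). The other tested Cyb5r3 probe (A_44_P170721) was not. Nqo1, a further Ahr target, was not tested, being above background on 14 arrays.

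Beside the members, marker lists describe the tissue samples. Probes differ in how well they bind, so levels are not to be compared between lists. All 7 adipocyte markers were tested and their mean level was 5.07 to 5.61 in the 7 groups. Of 8 mammary epithelium markers 7 were tested (group means -0.83 to 0.80), and of 6 hepatocyte markers 2. All 6 fibroblast markers were tested (group means 6.46 to 6.95), as were all 6 endothelial markers, the 5 macrophage markers on the array and 4 of 7 T cell markers. The 7 skeletal muscle markers on the array averaged -0.46 in BPA250+I3C, 0.21 in BPA250+genistein, 1.81 in BPA250, 0.92 in BPA25+I3C, 0.19 in BPA25+genistein, 4.65 in BPA25 and 4.53 in control. These muscle means differed between groups, with an SD within groups of 1.22 to 3.30. Control arrays (3.59 to 6.53) lay above all those of BPA250+I3C, BPA250+genistein and BPA250 (highest 2.76). They overlapped BPA25+I3C (-2.29 to 6.32), BPA25+genistein (-1.95 to 4.56) and BPA25 (1.70 to 5.63). The part of the muscle markers in the results was not tested. Across the 31 arrays outside slide 3, the Pearson correlation with the muscle markers was -0.08 for Cyp2e1, 0.03 for Cyp27a1 and -0.31 for Cyp26b1. Over the 17 tested probes it ran from -0.39 (Cyp4f5) to 0.29 (Cyp2t1). With the adipocyte markers it was -0.65 for the Cyp1b1 probe A_44_P251228, -0.11 for the other Cyp1b1 probe and 0.59 for Cyp27a1. The first and last of these were the lowest and highest of the 17 tested probes. With fibroblast markers the same probes had -0.66, -0.27 and 0.43 (descriptions, with no test).

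No P450 probe passed at an adjusted p under 0.05 in any of the 12 comparisons or in the F test over the 7 groups (limma, Benjamini-Hochberg over 18996 probes). The arrays as a whole gave few calls: 1 probe (0.00526%) for BPA25+genistein minus BPA25, 2 (0.0105%) for BPA25+I3C minus BPA25 and 0 (0%) elsewhere. What follows therefore compares values at an unadjusted p under 0.05, with the share of all probes at that level, and none of it is a call.

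The BPA doses alone left no P450 difference that passed. At an unadjusted p under 0.05, 0 of 17 P450 probes (limma) were found for BPA250 minus control (all probes 0.963%), 0 for BPA25 minus control (1.97%) and 1 for BPA250 minus BPA25 (1.67%). The median log2 difference of the 17 probes was 0.10 for BPA250 minus control (all probes -0.03) and -0.01 for BPA25 minus control (all probes 0.02). The probes with the smallest p against control were Cyp2b2, a phenobarbital-inducible P450 of rat liver, for BPA250 (0.55 ± 0.35), and Cyp2e1 for BPA25 (-1.56 ± 0.80), each with an adjusted p of 1. Behind them came Cyp27a1 (-0.30 ± 0.35) and Cyp2j9 (0.25 ± 0.30) for BPA250, and Cyp4b1 (0.63 ± 0.51) and Cyp2t1 (0.26 ± 0.30) for BPA25. For BPA250 minus BPA25, Cyp2e1 (1.99 ± 0.80) was followed by Cyp2b2 (0.47 ± 0.35) and the dim Cyp1b1 probe (0.47 ± 0.38), all with an adjusted p of 1. The other Cyp1b1 probe (A_44_P251228) gave 0.32 ± 0.44. On slides that held both groups, Cyp2e1 was lower in BPA25 than in control on 4 of 4 slides (-2.76 to -0.55) and higher in BPA250 than in BPA25 on 3 of 3 (0.30 to 2.63). Each slide sets 1 array against 1, and 2 of 5 BPA25 arrays were above background for Cyp2e1. Under alternatives the group difference ran from -2.12 to -0.33 for BPA25 minus control. For BPA250 minus BPA25 it ran from 0.50 to 2.55.

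Cyp2e1, which oxidises ethanol, ketones and small solvents and is best known from liver, had the widest spread of any P450 probe. It had levels of -2.88, -4.03, -1.45, -4.22 and -3.06 in BPA250+I3C, with 1 of 5 arrays above background. In BPA250+genistein it had -0.04, -0.47, 1.25, -1.23 and 2.86 (4 of 5 above background). In BPA250 it had 0.01, -0.26, -0.46, -1.42 and -1.84 (5 of 5). The BPA250+I3C animals were low, with 4 of them under all BPA250 animals, while BPA250+genistein overlapped BPA250 and held the single highest animal.

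In BPA25+I3C the Cyp2e1 levels were -3.15, -0.17, -1.20, 2.05 and -0.56 (4 of 5 above background). In BPA25+genistein they were -1.99, -0.03, -2.41, -1.80 and -0.23 (3 of 5). In BPA25 they were -2.62, -0.57, -3.49, -3.92 and -3.35 (2 of 5). Control animals had 0.13, -0.01, -2.92, -2.66 and -0.68 (4 of 5). The BPA25 animals were low apart from the one on slide 3 (-0.57), and control overlapped every other group.

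The I3C comparisons of Cyp2e1 ran in opposite directions at the 2 BPA doses. The difference was -2.33 ± 0.80 for BPA250+I3C minus BPA250 (adjusted p = 0.776) and 2.18 ± 0.80 for BPA25+I3C minus BPA25 (adjusted p = 0.984). The test of the difference between them gave -4.51 ± 1.14 (adjusted p = 1). Most BPA250+I3C and BPA25 values in these differences were not above background (4 of 5 and 3 of 5 arrays), so their sizes are uncertain. Cyp2e1 was the single P450 probe of 17 at an unadjusted p under 0.05 in each of these tests, against 4.17%, 4.31% and 3.13% of all probes. It was likewise the single one in the F test (adjusted p = 0.384), against 4.05% of all probes, followed by Cyp27a1. The lowest group mean was -3.13 ± 1.11 in BPA250+I3C and the highest 0.47 ± 1.61 in BPA250+genistein (SD, n = 5 each), a range of 3.60 against a pooled SD within groups of 1.36.

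Batches bear on Cyp2e1 in the following way. Without the 4 arrays of slide 3 the interaction was -4.93 ± 1.16 (adjusted p = 0.258), and with slide as a block it was -4.55 ± 0.98 (adjusted p = 0.133). Without slide 3, BPA25+I3C minus BPA25 was 2.74 ± 0.82 (adjusted p = 0.229) and BPA250+I3C minus BPA250 was -2.20 ± 0.82 (adjusted p = 1). On the 1 slide that held both groups, the difference was -2.89 for BPA250+I3C minus BPA250 and 5.40 for BPA25+I3C minus BPA25. Within the 4 scan days that held both groups, BPA250+I3C minus BPA250 ran from -3.46 to -1.09 and BPA25+I3C minus BPA25 from -0.53 to 4.10, with 1 of the 4 days below 0. With lower weights for noisier arrays, Cyp2e1 passed for BPA25+I3C minus BPA25 (2.34 ± 0.69, adjusted p = 0.0407) and for the interaction (-4.56 ± 0.98, adjusted p = 0.0134). With normexp background correction the interaction was -1.48 ± 0.58 and in the authors' deposited values -2.22 ± 0.67, each with an adjusted p of 1. The array weighting called 971 and 477 probes of the whole table in these comparisons.

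**Figure D4:**
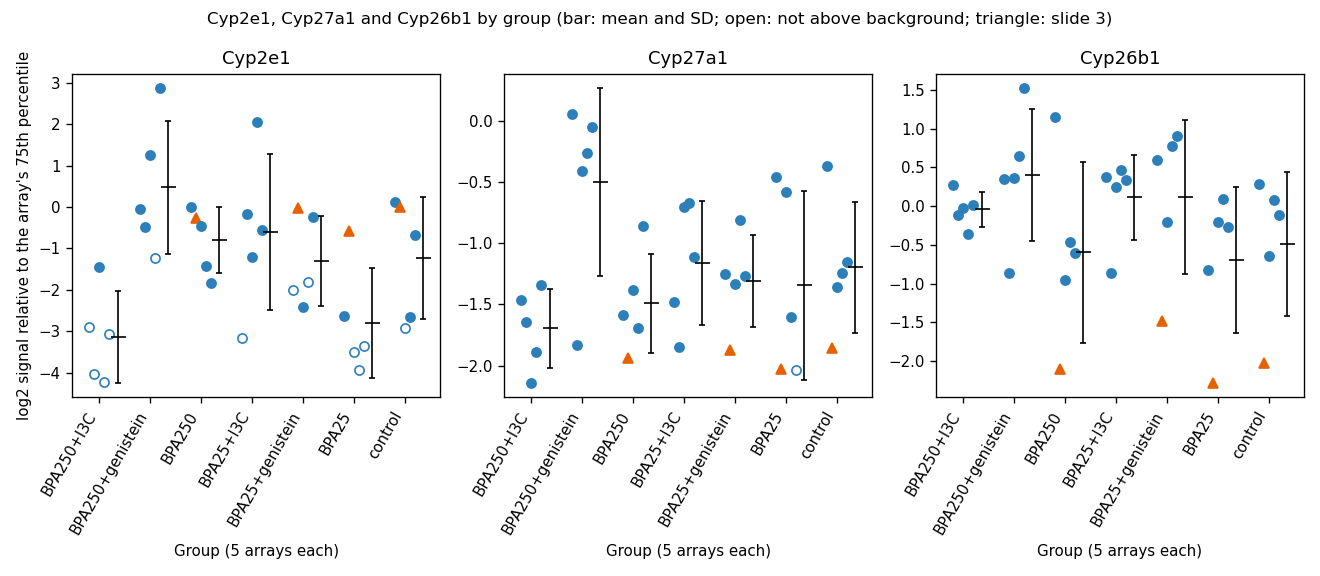
Each symbol is 1 array in its group, for Cyp2e1, Cyp27a1 and Cyp26b1, on a vertical axis of log2 signal relative to the array's 75th percentile. Horizontal bars are group means and whiskers the SD (n = 5), open circles are not above background and triangles are arrays of slide 3. Cyp2e1 has its lowest mean in BPA250+I3C (-3.13) and its next lowest in BPA25 (-2.79).

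The other P450 probes with the smallest p in the I3C comparisons did not pass. No I3C array is on slide 3, which held 1 array each of BPA250 and BPA25. For BPA250+I3C minus BPA250 they were Cyp4f5 (0.48 ± 0.32, and 0.24 ± 0.25 without slide 3), a leukotriene hydroxylase, and Cyp2b2 (-0.52 ± 0.35). For BPA25+I3C minus BPA25 they were Cyp26b1 (0.81 ± 0.52, and 0.42 ± 0.39 without slide 3) and Cyp1b1 (0.55 ± 0.38, dim probe). Averaged over both doses, 0 of 17 P450 probes had an unadjusted p under 0.05, against 5.25% of all probes. There the smallest p belonged to Cyp26b1 (0.68 ± 0.37), Cyp4f5 (0.39 ± 0.22) and Cyp4f6 (0.46 ± 0.33), each with an adjusted p of 0.701. Without slide 3 these differences were 0.30 ± 0.27 for Cyp26b1, 0.18 ± 0.18 for Cyp4f5 and 0.09 ± 0.18 for Cyp4f6, each with an adjusted p of 1. The median of the 17 probes was -0.16 for BPA250+I3C minus BPA250, where the median of all probes was 0.23, and 0.30 for BPA25+I3C minus BPA25 (all probes 0.12). In the first of these comparisons the P450 median was -0.56 when scaled on the probes detected on all 35 arrays, which moved the median of all probes by -0.40. It was 0.11 with quantile normalization, 0.07 in the authors' deposited values and 0.01 with normexp, so its sign depends on the scaling. After Cyp2e1, the smallest p for the interaction with dose were those of Cyp2w1, found in fetal gut and tumours (-0.93 ± 0.47), and Cyp2b2 (-0.64 ± 0.49).

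**Figure D5:**
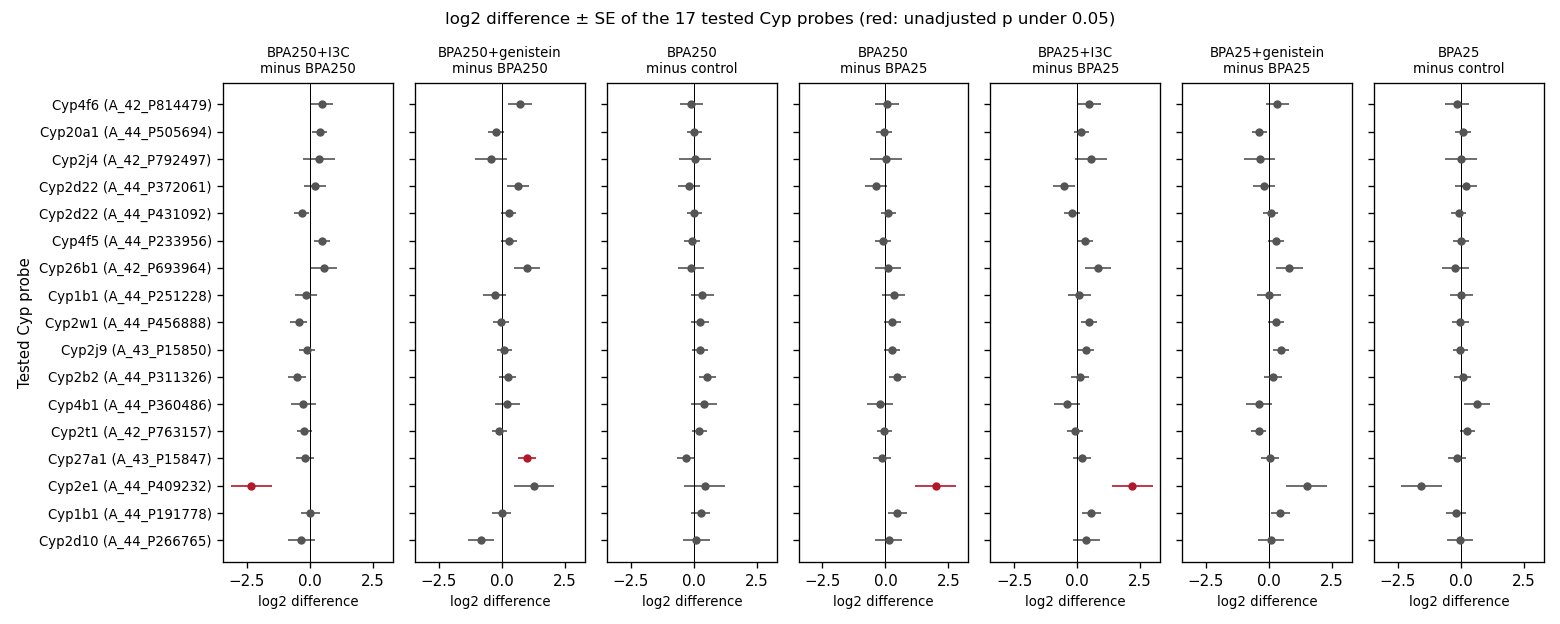
Each panel is 1 comparison and each row 1 of the 17 tested P450 probes, with the log2 difference between group means on the horizontal axis and whiskers of 1 SE. Red marks an unadjusted p under 0.05; Cyp2e1 is red in 3 panels and Cyp27a1 in 1, and none passed adjustment.

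Genistein was set against each BPA dose in the same way. Averaged over both doses, 3 of 17 P450 probes had an unadjusted p under 0.05, all with positive differences, against 9.22% of all probes. They were Cyp26b1 (0.91 ± 0.37, adjusted p = 0.451), Cyp2e1 (1.38 ± 0.57, adjusted p = 0.452) and Cyp27a1 (0.52 ± 0.25, adjusted p = 0.534). The median of the 17 was 0.20, against 0.05 over all probes. Without slide 3, 5 of 17 P450 probes were at that level, against 20% of all probes. With slide as a random block, Cyp2e1 (1.90 ± 0.47, adjusted p = 0.0338) and Cyp26b1 (0.96 ± 0.25, adjusted p = 0.0393) passed, in a fit that called 500 probes of the table. With weights for noisier arrays Cyp2e1 passed (1.98 ± 0.57, adjusted p = 0.0408), and that fit called 1018.

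Cyp27a1, the mitochondrial enzyme that makes 27-hydroxycholesterol, led at the higher dose. Its levels were 0.06, -1.83, -0.41, -0.26 and -0.05 in BPA250+genistein, against -1.59, -1.94, -1.38, -1.69 and -0.86 in BPA250. In BPA250+genistein 4 animals stood above all BPA250 animals, and the animal numbered 2, on slide 4, was below 4 of them. The difference was 1.00 ± 0.35 (adjusted p = 1), with 1 of 17 P450 probes at an unadjusted p under 0.05 against 4.16% of all probes. It was 0.88 without slide 3, 0.82 and 0.97 on the 2 slides that held both groups, and 0.54 to 1.65 within 4 scan days. In BPA25+genistein the levels were -1.25, -1.87, -1.33, -0.81 and -1.27, against -0.46, -2.03, -0.58, -1.60 and -2.04 in BPA25, and these groups overlap. The difference of the genistein effect between doses was 0.96 ± 0.50 (adjusted p = 1). The Cyp2d22 probe A_44_P372061 (0.86 ± 0.62, and 0.39 ± 0.49 without slide 3) and Cyp2d10 (-0.92 ± 0.75) came next. The other Cyp2d22 probe (A_44_P431092) gave 0.20 ± 0.43. Here 0 of 17 P450 probes had an unadjusted p under 0.05, against 1.25% of all probes. The adipocyte markers averaged 5.61 in BPA250+genistein (arrays 4.55 to 6.42) and 5.2 in BPA250 (arrays 3.65 to 6.07), so these groups overlap. Slide 3 held an array of BPA250 but none of BPA250+genistein, and the BPA250 mean includes that array. The part of the adipocyte markers in the Cyp27a1 difference was not tested.

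Cyp26b1 had levels of 0.35, -0.86, 0.36, 0.65 and 1.52 in BPA250+genistein, against 1.15, -2.10, -0.96, -0.47 and -0.61 in BPA250. It had 0.60, -1.49, -0.21, 0.77 and 0.90 in BPA25+genistein, against -0.83, -2.28, -0.20, 0.09 and -0.27 in BPA25. The lowest animal of BPA250, BPA25+genistein and BPA25 was the one on slide 3, and the groups overlap at both doses. The difference was 1.00 ± 0.52 at the higher dose and 0.81 ± 0.52 at the lower, both with an adjusted p of 1. Without slide 3, which held an array of BPA250 but none of BPA250+genistein, they were 0.62 ± 0.39 and 0.82 ± 0.41. For BPA25+genistein minus BPA25, 0 of 17 P450 probes had an unadjusted p under 0.05, against 4.8% of all probes. Cyp2e1 (1.5 ± 0.80) and Cyp2j9 (0.48 ± 0.30) had the other small p there. For BPA250+genistein minus BPA250, Cyp2e1 differed by 1.27 ± 0.80, and by 0.67 without the BPA250+genistein animal at 2.86.

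The 4 groups with BPA and a diet, averaged and set against control, had 0 of 17 P450 probes at an unadjusted p under 0.05, against 1.67% of all probes. Of the 17 differences, 15 were positive with a median of 0.09, while the median over all probes was 0.10 and 67.7% of them were positive. Scaled on the probes detected on all 35 arrays, these medians were -0.06 for the P450 probes and -0.05 for all probes, so the direction depends on the scaling. The smallest p were those of Cyp26b1 (0.63 ± 0.41), Cyp2j9 (0.32 ± 0.24) and Cyp4f5 (0.31 ± 0.25), each with an adjusted p of 1. Without slide 3 the Cyp26b1 difference was 0.35 ± 0.32. Cyp20a1 had its highest group mean in BPA250+I3C (2.02 ± 0.35) and its lowest in BPA25+genistein (1.31 ± 0.61) (F test, adjusted p = 1). Without slide 3 the BPA25+genistein mean was 1.52, and BPA250+genistein was lowest (1.42). Cyp2b2 and Cyp26b1, also among the 5 smallest F test p, had an adjusted p of 1 as well.

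Some members shared features that the naming rule did not use. On GRCr8, Cyp2j3 and Cyp2j4 (the Cyp2j9 and Cyp2j4 probes) are adjacent genes, and Cyp2d4 and Cyp2d5 (Cyp2d22 and Cyp2d10) have 1 gene between them. The core of the Ahr response element, GCGTG on either strand, occurs in 29.7% of all 33469 RefSeq rat promoters (250 bases before to 50 after the start). It occurs in 16 of 53 promoters of P450 members (30.2%) and in 8 of the 15 of tested members, Cyp1b1 and Cyp26b1 among them. The nuclear receptor core motif AGGTCA, on either strand, occurs in 16.2% of all promoters, in 20 of the 53 (37.7%) and in 2 of the 15. These are letter matches in a short window and say nothing of binding. Across the 35 arrays, Cyp4f6 and Cyp4f5, both leukotriene hydroxylases, had a correlation of 0.84, the highest of any pair of tested P450 probes, as a description across arrays that share slides. Over the 31 arrays outside slide 3 it was 0.64, and Cyp2j9 and Cyp4f5 were highest (0.73).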

How the data were processed

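Each array file is the output of Agilent Feature Extraction 9.5.3.1, per the submitters' processing notes. Per the file headers, its processed signal is a background-subtracted, detrended intensity, its mean and local background signals are uncorrected intensities, and flags (other) mark outliers, saturation and signals well above background. The authors also deposited 1 table of values on a log2 scale (column medians 6.55 to 6.58), whose normalization is not given in the sources used here.

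The processed signal was taken to log2, centred on each array's 75th percentile of probe spots, and averaged over repeated spots, with outlier spots missing. Probes above background on at least 4 of 5 arrays of some group entered 1 limma fit (3.58.1, R 4.3.3) of 7 group means over 35 arrays, with at most 5 missing values, which stayed missing. Of 595 P450 values 2 were missing. Adjusted p-values are Benjamini-Hochberg over 18996 probes, with a threshold of 0.05. The number of arrays limits the precision. The fit was tested on simulated data. Probes were named by the array files. Named were, per comparison, the 3 P450 probes with the smallest p, the 5 with the smallest F test p, the 6 genes with the highest mean signal, and a list of 18 hormone, vitamin, xenobiotic and fatty acid P450 genes. Members, lists and this rule were chosen with earlier results of these data known. Figures were drawn with matplotlib 3.10.9. Alternatives were another background correction, scaling or filter, the authors' table, blocks for slide, scan day and replicate number, array weights, and each array left out in turn.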

Additional observations from a re-analysis of the deposited data

Results flagged for a closer look

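Of 119 groups of 5 arrays (17 P450 probes in 7 groups), 16 held an array set apart from the other 4 by a wide gap. For independent groups, chance gives about 1 in 20, or 6. The 17 probes share the same arrays, so these groups are not independent and 6 is only a rough guide. Of these 16 arrays 10 were on slide 3. Cyp4f6 was low there in BPA250 (1.44), BPA25 (1.38) and control (1.36, others 3.37 to 3.44). Cyp2j4 was low in BPA25 (0.17) and control (-0.14), Cyp2t1 in BPA250 (-1.34), Cyp4f5 in BPA250 (-0.65) and the Cyp2d22 probe A_44_P372061 in control (-0.22). Cyp4b1 was high in control (1.08) and Cyp2w1 in BPA250 (0.27).

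The other 6 were on slides 1, 4 and 8. On slide 4, Cyp26b1 was low in BPA25+I3C (-0.86), Cyp27a1 was low in BPA250+genistein (-1.83) and the Cyp1b1 probe A_44_P251228 was high in BPA25+I3C (0.77). On slide 8, Cyp2t1 was high in BPA250+I3C (-0.34) and Cyp2w1 low in BPA250+genistein (-0.88). On slide 1, Cyp2b2 was low in BPA25 (-1.51).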

How the results depend on the processing

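Every count of called P450 probes was 0 as reported. It was also 0 in 386 of 392 counts under alternatives, including each array left out in turn (0 to 0 for every comparison). The other 6 came from 2 settings. With slide as a random block (correlation within slides 0.58) it was 2 for genistein averaged over both doses and 1 in the F test. With array weights it was 1 for BPA25+I3C minus BPA25, 1 for genistein averaged, 1 for the I3C interaction and 1 in the F test. Of 1027 values of the 36 named differences under alternatives, 2 reversed, both with normexp background correction. The dim Cyp1b1 probe for BPA250 minus BPA25 was -0.01 and Cyp2d10 for the genistein interaction was 0.10. The cause was not tested. Leaving out 1 array moved 22 of the 36 differences by over 1.5 times at its most and turned no sign. It gave -5.15 to -3.85 for the I3C interaction of Cyp2e1, and 0.86 to 1.33 for Cyp27a1 in BPA250+genistein minus BPA250. The Cyp2e1 interaction was -1.48 with normexp and -2.22 in the authors' table, against -4.51; the cause was not tested. For the whole table, array weights called up to 1146 probes (F test), against 0. Same-numbered animals share no source that the labels name, and were not treated as pairs. Correlations of same-numbered arrays ran from -0.376 to 0.942 over 105 pairs, 68 of them over 0.1, with a median of 0.203 against -0.0211 for other numbers. Of 35 arrays, 23 correlated best with their own number. Number goes with batch: all animals numbered 1 were scanned on the same day, as were all numbered 5. The slide 3 arrays were all numbered 2. Pairing of animals and shared batch therefore cannot be told apart here. With the replicate block the counts of called P450 probes were 0, and the Cyp2e1 interaction was -4.51 (adjusted p = 0.454). Cyp2e1, Cyp2d10 and a Cyp1b1 probe were near background on part of the arrays.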

Other observations

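Cyp2j4 was well above background on 33 of 35 arrays. The other 2 were the animals numbered 4 of BPA250+genistein (-1.98) and of BPA25+genistein (-1.73), on slides 8 and 7. All remaining arrays were at -0.43 or higher, so the spread of Cyp2j4 in both genistein groups (SD 1.65 and 1.66) includes 1 such animal each. The slide 3 array of BPA25+genistein was at 0.03 and adds to the spread of that group.

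Probes of 1 gene name disagreed on detection. Of 4 probes named Cyp2b2, A_44_P311326 was above background on 35 arrays and the others on 13, 13 and 6. Of 2 named Cyp2j9, 1 was above background on 34 arrays and the other on 4. Some Cyp2b genes of the rat are near-identical, and which transcripts each of these probes binds was not tested.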
